A study of Homo sapiens with 10 samples.

Results

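Small RNA host genes are the genes whose long transcripts carry microRNAs or small nucleolar RNAs (snoRNAs) in their exons or introns. The members were taken by name from a table of gene counts, as every row whose identifier maps to a symbol of the form MIR...HG, for a microRNA host gene, or SNHG followed by a number, for a snoRNA host gene. This gave 102 of 61587 rows, of which 74 were microRNA hosts and 28 were snoRNA hosts. The table held at least 200 counts over the 10 samples for 33 of the 74 microRNA hosts and for 26 of the 28 snoRNA hosts, and these 59 genes were tested.

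The counts are from poly-A RNA-seq of RPTEC/TERT1, a line of human proximal tubular (PT) epithelial cells immortalised with telomerase. The irradiated group (5 samples) received 10 Gy of gamma rays and the control group (5 samples) was mock-irradiated, and both carried the same telomerase transgene and were collected 7 days later. The comparison asks which transcripts differ a week after a dose that the study used to drive tubular cells into senescence. All samples came from this 1 immortalised line, so they do not cover the variation between kidneys, and no label gives separate cultures for the replicates, so p-values measure the spread between these samples. The labels number the line from RPTEC/TERT1 upwards through the samples, whereas the study describes a single line, which is used here. In these RNA pools, fewer cells expressing a gene and less RNA of it per cell cannot be told apart.

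A microRNA is cut in the nucleus from a hairpin in its primary transcript, trimmed in the cytoplasm by DICER1 and loaded into an Argonaute protein, where bases 2 to 8 of the mature strand, the seed, pair with target messenger RNAs. The host transcript is what the RNA polymerase makes, and the mature microRNA is what remains after processing. Most snoRNAs are cut from introns after splicing and guide chemical modification of ribosomal RNA: box C/D snoRNAs direct ribose methylation and box H/ACA snoRNAs direct pseudouridylation. Many spliced SNHG transcripts begin with a terminal oligopyrimidine stretch, as ribosomal protein messengers do, and are removed by nonsense-mediated decay. The libraries were made from polyadenylated RNA, so the values below are of host transcripts, and the mature microRNAs and snoRNAs were not measured.

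Mature microRNAs of 4 called hosts described below, and the let-7 microRNAs, which are carried by several of the hosts, are printed first because the results are grouped by them. The sequences are from RefSeq (GRCh38.p14), written 5′ to 3′ with the seed in capitals. miR-146a-5p lies in an exon of MIR3142HG at chr5:160485372-160485393 (plus strand), miR-155-5p in an exon of MIR155HG at chr21:25573983-25574006 (plus strand), miR-34a-5p in an exon of MIR34AHG at chr1:9151735-9151756 (minus strand) and miR-17-5p in an exon of MIR17HG at chr13:91350618-91350640 (plus strand).
hsa-miR-146a-5p: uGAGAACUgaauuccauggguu
hsa-miR-155-5p: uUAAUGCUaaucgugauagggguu
hsa-miR-34a-5p: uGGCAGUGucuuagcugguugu
hsa-miR-17-5p: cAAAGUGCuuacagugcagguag
hsa-miR-20a-5p: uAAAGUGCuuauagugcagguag
hsa-let-7a-5p: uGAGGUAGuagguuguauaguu
hsa-let-7b-5p: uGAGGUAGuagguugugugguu
hsa-let-7c-5p: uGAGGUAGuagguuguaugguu
hsa-let-7i-5p: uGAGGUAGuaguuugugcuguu
hsa-miR-4458: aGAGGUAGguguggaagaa
miR-17-5p and miR-20a-5p, both from the exon of MIR17HG, share the seed AAAGUGC. The let-7 members and miR-4458 share GAGGUAG although they come from different chromosomes.

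Total counts on genes ran from 66269311 to 131555873 per sample. CDKN1A, the cyclin-dependent kinase inhibitor induced by p53, was at 66.7 to 208 CPM (counts scaled to a common library size, normalised by the TMM method) in control and 584 to 768 CPM in irradiated samples, so that every irradiated sample lay above every control. The renal epithelial genes PAX8 and CDH16 were well covered, while LRP2, HNF4A and SLC34A1, which mark differentiated PT cells, held 17, 12 and 86 counts over the 10 samples. The summed level of 3 fibroblast markers (COL1A1, PDGFRA and DCN) was 15.8 to 23.4 CPM in control and 28.5 to 40.0 CPM in irradiated samples, and that of 3 endothelial markers (PECAM1, CDH5 and VWF) was 1.28 to 2.40 and 4.15 to 6.07 CPM, with no marker at 0 in all samples. Control replicates 1 and 3 stood apart from the other controls: 10 cell cycle genes chosen after the data had been seen, among them MKI67 and TOP2A, summed to 209 and 196 CPM in these 2 samples, 580 to 623 CPM in the other 3 controls and 69.0 to 113 CPM in irradiated samples. The part of these differences in the results below was not tested, and the counts of called hosts are given with and without replicates 1 and 3.

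Of the 33 microRNA hosts, 6 were higher and 14 lower after irradiation and 13 were not called, with edgeR's quasi-likelihood test at an adjusted p-value under 0.05. Over all 19006 genes tested, 46.6% were called, 23.9% higher and 22.7% lower, so the share of microRNA hosts called lower was 42.4% against 22.7% and the share called higher was 18.2% against 23.9%. Of the 26 snoRNA hosts, 3 were higher, 6 lower and 17 not called, which is 11.5% higher and 23.1% lower. Among the 3574 long non-coding RNA genes tested, the kind of gene to which nearly all hosts belong, 17.2% were higher and 17.0% lower. Without replicates 1 and 3 the counts were 7 higher and 12 lower microRNA hosts, and 2 higher and 7 lower snoRNA hosts.

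The fitted changes of the 2 kinds of host covered different ranges. The log2 fold change of microRNA hosts ran from -2.18 to 3.78 with a median of -0.23 and an interquartile range of 0.76, whereas that of snoRNA hosts ran from -0.77 to 0.39 with a median of -0.01 and an interquartile range of 0.33. The median over all genes tested was -0.01 and the interquartile range 0.46, and over the 3574 long non-coding RNA genes they were -0.03 and 0.58. Of these 3574 genes, 214 rose and 129 fell by more than 2-fold and passed the test. The median standard error was 0.134 for microRNA hosts, 0.087 for snoRNA hosts, 0.159 for long non-coding RNA genes and 0.091 for all genes. More than 2-fold changes passed the test in 4 microRNA hosts upwards and 4 downwards, against 5.26% and 4.06% of all genes, and in 0 snoRNA hosts. In CPM, irradiated and control samples did not overlap for 10 microRNA hosts and 4 snoRNA hosts, compared with 26.7% of all genes. Within the 5 replicate pairs, the median log2 difference of microRNA hosts was -0.21, 0.02, -0.44, -0.38 and -0.11 for pairs 1 to 5, and that of snoRNA hosts was 0.10, -0.03, -0.00, -0.07 and -0.01. These are descriptions of 2 lists, and the difference between the lists was not tested.

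**Figure D1:**
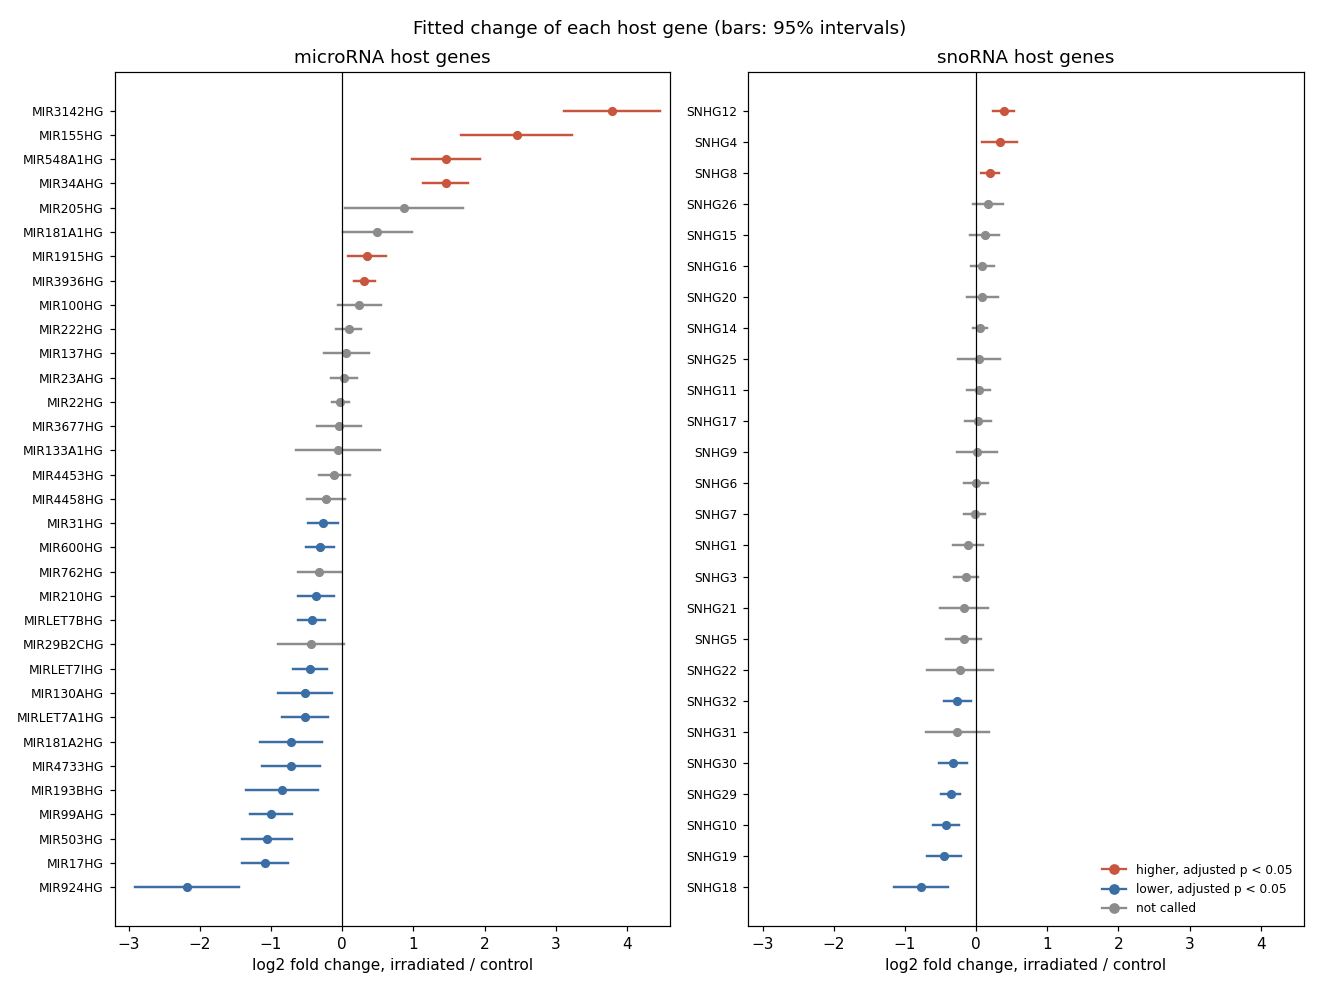
Fitted log2 fold change (irradiated over control, x axis) of the 33 microRNA hosts (left) and 26 snoRNA hosts (right) that were tested, each point with its 95% interval as a bar. Red points were called higher, blue points lower and grey points were not called, and the microRNA hosts spread from -2.18 to 3.78 while the snoRNA hosts stay between -0.77 and 0.39.

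**Figure D2:**
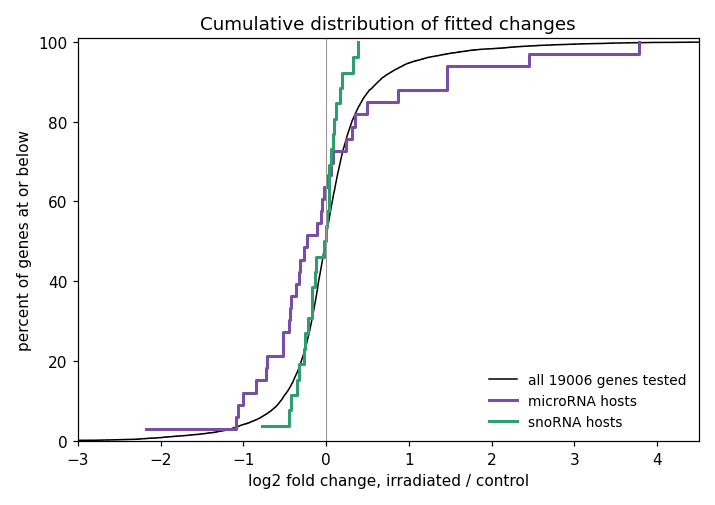
Cumulative percentage of genes (y axis) at or below each fitted log2 fold change (x axis) for all 19006 genes tested (black), the 33 microRNA hosts (purple) and the 26 snoRNA hosts (green). The purple line lies left of the black line between -1.06 and 0 and reaches 3.78 at its right end, and the green line is the steepest, with an interquartile range of 0.33.

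The 4 largest rises were in MIR3142HG, MIR155HG, MIR548A1HG and MIR34AHG. MIR3142HG (chr5:160438594-160487426, plus strand) carries miR-3142 in an intron and miR-146a, a brake on Toll-like receptor and interleukin-1 signalling, in an exon. Its level was 0.379, 1.35, 0.618, 1.22 and 0.790 CPM in control replicates 1 to 5 and 10.8, 9.56, 13.8, 11.5 and 12.3 CPM in irradiated replicates 1 to 5. Every irradiated sample lay far above the highest control, and the groups did not overlap. The fitted rise was 3.78 ± 0.29 (SE) on the log2 scale, 13.8-fold (adjusted p = 6.73e-05, edgeR), which is the largest of the 59 tested hosts.

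MIR155HG (chr21:25561810-25575168, plus strand) is the primary transcript of miR-155, a microRNA induced in activated immune and inflamed cells. It was at 0.917, 2.72, 1.79, 2.03 and 1.84 CPM in the controls and 10.3, 5.58, 17.0, 10.9 and 8.24 CPM in the irradiated samples, again without overlap. Irradiated replicate 3 was the highest and irradiated replicate 2 the lowest of its group, and control replicate 1 was the lowest of all. The change was 2.45 ± 0.33 (SE) (adjusted p = 0.000851, edgeR), and 1.87 without replicates 1 and 3 (adjusted p = 0.00122, edgeR).

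MIR34AHG (chr1:9148011-9198906, minus strand) carries miR-34a, a direct p53 target that represses cell cycle messengers. Control samples held 8.73, 8.19, 10.7, 6.92 and 6.69 CPM and irradiated samples 20.03, 27.3, 20.03, 22.4 and 22.3 CPM. All irradiated values lay above the highest control, replicate 3, and irradiated replicate 2 was the highest. The rise was 1.46 ± 0.14 (SE), or 2.74-fold (adjusted p = 0.000153, edgeR). MIR548A1HG (chr6:18522735-18674001, plus strand), the host of a microRNA of the large primate miR-548 family, was at 1.49, 1.15, 0.518, 1.37 and 1.47 CPM in controls and 3.32, 2.17, 2.94, 3.66 and 4.04 CPM after irradiation. The groups did not overlap and control replicate 3 was the lowest sample. Its rise, 1.46 ± 0.21 (SE) (adjusted p = 0.001, edgeR), had the same fitted size as that of MIR34AHG at a lower level. These 4 hosts kept their call under all 14 alternative analyses.

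The other 2 called rises were small. MIR3936HG rose by 0.31 and MIR1915HG by 0.35 on the log2 scale, and the call of MIR1915HG was kept in 8 of 14 alternatives, with a change of 0.23 without replicates 1 and 3 (adjusted p = 0.033, edgeR). MIR205HG, whose miR-205 supports epithelial identity, was not called, with a fitted change of 0.87 and a 95% interval from 0.045 to 1.69. It was at 4.87, 1.87, 18.3, 3.78 and 3.79 CPM in the controls and 14.9, 3.90, 9.48, 10.4 and 7.95 CPM in the irradiated samples. Control replicate 3 was the highest of the 10 samples, and the other controls ran from 1.87 to 4.87 CPM, so the groups overlapped through 1 sample and through irradiated replicate 2. Without replicates 1 and 3 the change was 1.21 (adjusted p = 0.000227, edgeR).

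**Figure D3:**
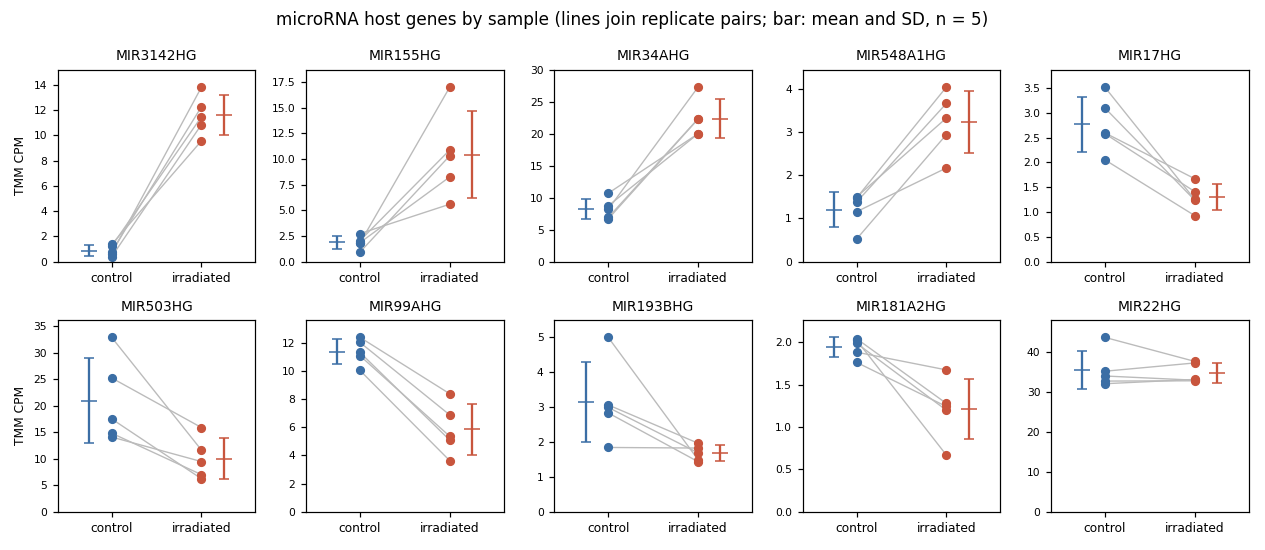
TMM-normalised CPM (y axis) of 10 microRNA hosts in each control (blue) and irradiated (red) sample, with grey lines joining samples of the same replicate number and bars for the mean and SD (n = 5 per group). MIR3142HG, MIR155HG, MIR34AHG and MIR548A1HG are higher in all 5 pairs without overlap, MIR17HG, MIR99AHG and MIR181A2HG are lower without overlap, and MIR22HG averages 35.5 and 34.8 CPM.

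Among the lower hosts, the polycistronic MIR17HG (chr13:91347686-91397592, plus strand) encodes 6 microRNAs of the miR-17 to miR-92a cluster, which E2F factors induce and which favours proliferation. It was at 2.58, 2.60, 2.05, 3.10 and 3.52 CPM in control and 1.41, 1.67, 0.929, 1.24 and 1.26 CPM in irradiated samples. Each irradiated value lay below the lowest control, which was replicate 3. It fell by 1.09 ± 0.14 (SE) on the log2 scale, 2.13-fold (adjusted p = 0.000627, edgeR), and exons of opposite-strand genes cover 20.5% of its exons. MIR924HG had the largest fall, -2.18 ± 0.31 (SE, adjusted p = 0.00106, edgeR), from a low level: 0.318, 0.901, 0.169, 0.798 and 1.02 CPM in controls and 0.101, 0.149, 0.119, 0.109 and 0.170 CPM after irradiation. Control replicates 1 and 3 were the lowest controls, as they were for the cell cycle genes above, and control replicate 3 lay within the irradiated range. Its value without these replicates was -2.67 (adjusted p = 0.000111, edgeR).

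MIR503HG (chrX:134543119-134546642, minus strand) carries miR-503, a microRNA known to target G1 cyclins. Its level was 32.9, 25.3, 14.1, 17.5 and 14.8 CPM in control and 11.6, 15.9, 9.48, 6.24 and 7.01 CPM in irradiated samples. The controls were widely spread, with replicates 1 and 2 highest, and irradiated replicate 2 lay above 2 controls, so the groups overlapped although all 5 pairs fell. The change was -1.06 ± 0.15 (SE) (adjusted p = 0.00106, edgeR). MIR193BHG (chr16:14301389-14331067, plus strand), the host of miR-193b and miR-365a, was at 2.83, 1.84, 4.98, 3.05 and 2.98 CPM in controls and 1.43, 1.82, 1.49, 1.96 and 1.68 CPM after irradiation. Control replicate 3 was the highest and control replicate 2 fell within the irradiated range. The change was -0.85 ± 0.22 (SE) (adjusted p = 0.0152, edgeR), and without replicate 1 it was -0.81 (adjusted p = 0.0554, edgeR). Without replicates 1 and 3 it was -0.51 (adjusted p = 0.0401, edgeR).

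The let-7 microRNAs hold back growth and stem cell genes such as HMGA2 and RAS family members. Their seed was present in 6 of the 59 tested hosts, of which 4 were lower, 0 higher and 2 not called. Of all genes tested, 22.7% were lower and 23.9% higher. Genes outside the symbol pattern that carry let-7 microRNAs are not in this count. MIR99AHG (chr21:15928296-16646364, plus strand), which also carries miR-99a and miR-125b, had 11.3, 12.4, 10.04, 11.1 and 12.03 CPM in controls and 5.09, 8.38, 3.63, 5.36 and 6.87 CPM in irradiated samples, with no overlap. It fell 2.01-fold (adjusted p = 0.000594, edgeR), more than the other let-7 hosts. Irradiated replicate 3 was the lowest sample and irradiated replicate 2 the highest of its group.

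MIRLET7BHG (chr22:46053869-46113928, plus strand), the host of let-7a-3 and let-7b, had the highest level per kilobase of exon among the 6. It was at 29.3, 24.0, 18.4, 23.0 and 20.5 CPM in controls and 18.4, 18.7, 13.3, 15.8 and 19.0 CPM after irradiation. The groups overlapped because control replicate 3 was low, but each irradiated sample was below its own control, and the change was -0.43 ± 0.08 (SE) (adjusted p = 0.00405, edgeR). MIRLET7IHG (chr12:62602752-62622213, plus strand) held 8.38, 9.26, 8.61, 8.62 and 8.53 CPM in control and 6.24, 7.85, 4.71, 6.43 and 6.81 CPM in irradiated samples. These did not overlap, and the change was -0.45 ± 0.10 (SE) (adjusted p = 0.00774, edgeR).

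MIRLET7A1HG (chr9:94166258-94200905, plus strand), with let-7a-1, let-7f-1 and let-7d, was at 3.91, 4.18, 5.44, 3.95 and 3.87 CPM in controls and 2.99, 3.21, 2.51, 2.69 and 3.40 CPM after irradiation, without overlap. It changed by -0.52 ± 0.14 (SE) (adjusted p = 0.0162, edgeR), and 27.9% of its exons lie under exons of the opposite strand. MIR100HG, which carries let-7a-2 with miR-100 and miR-125b, is laid out like MIR99AHG but was not called. Its level was 0.966, 1.50, 0.997, 1.86 and 1.75 CPM in controls and 1.45, 1.51, 1.47, 1.85 and 1.88 CPM in irradiated samples, the ranges overlapped, and the 95% interval of the change ran from -0.06 to 0.54. MIR4458HG was not called either, with an interval from -0.50 to 0.04.

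**Figure D4:**
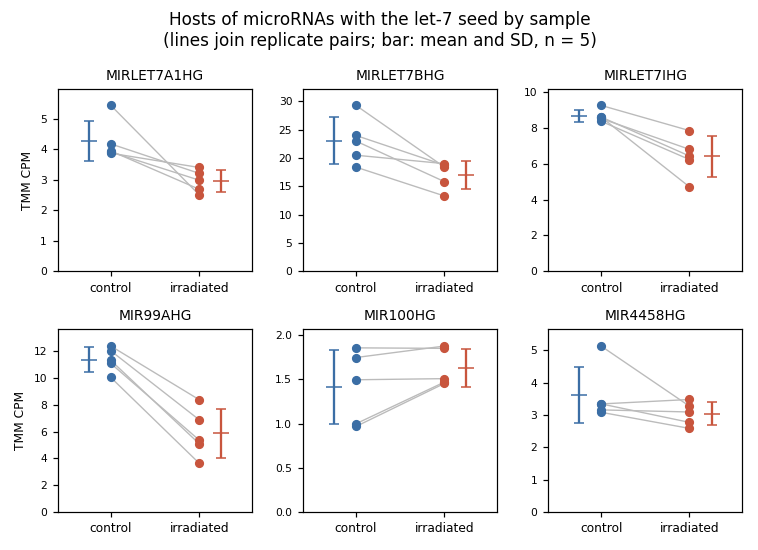
TMM-normalised CPM (y axis) of the 6 tested hosts of microRNAs with the let-7 seed in each control (blue) and irradiated (red) sample, with lines joining replicate pairs and bars for the mean and SD (n = 5 per group). MIRLET7A1HG, MIRLET7BHG, MIRLET7IHG and MIR99AHG fall in all 5 pairs, whereas MIR100HG averages 1.41 CPM in control and 1.63 CPM in irradiated samples.

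The miR-181 seed was shared by 2 tested hosts that carry the same pair of microRNAs.
hsa-miR-181a-5p: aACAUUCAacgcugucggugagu
hsa-miR-181b-5p: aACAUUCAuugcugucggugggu
MIR181A2HG (chr9:124658412-124698635, plus strand) was at 1.76, 1.88, 2.02, 1.99 and 2.04 CPM in controls and 1.24, 1.67, 0.670, 1.20 and 1.28 CPM in irradiated samples. The controls were tight, irradiated replicate 3 was the lowest, and the groups did not overlap. The change was -0.72 ± 0.19 (SE) (adjusted p = 0.0163, edgeR), and it lost its call without replicate 4 (adjusted p = 0.0502, edgeR). For MIR181A1HG the fitted change was 0.49, with an interval from 0.0049 to 0.98, and it was not called.

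MIR210HG (chr11:565657-568457, minus strand), whose miR-210 is induced by hypoxia-inducible factors, was at 18.9, 7.43, 12.02, 11.8 and 10.2 CPM in control and 12.5, 8.26, 8.78, 8.34 and 7.63 CPM in irradiated samples. Replicate 1 was the highest of each group, the groups overlapped, and 4 of 5 pairs fell. The change was -0.37 ± 0.11 (SE) (adjusted p = 0.0275, edgeR), and the call was kept in 8 of 14 alternatives. Without replicates 1 and 3 it was -0.27 (adjusted p = 0.121, edgeR). MIR31HG (chr9:21380073-21559891, minus strand), a transcript linked to senescence control, was at 9.82, 10.9, 12.5, 12.3 and 11.4 CPM in control and 9.15, 10.9, 9.17, 8.67 and 9.26 CPM in irradiated samples. The groups overlapped, all 5 pairs fell, and the change of -0.27 ± 0.09 (SE) (adjusted p = 0.0381, edgeR) was called in 9 of 14 alternatives. Without replicates 1 and 3 its adjusted p was 0.0509 (edgeR).

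MIR22HG (chr17:1711447-1717174, minus strand), the host of miR-22, had the highest level per kilobase of exon among microRNA hosts, 11.3 CPM per kb. It was at 43.7, 35.2, 32.1, 34.0 and 32.7 CPM in controls and 37.7, 37.3, 33.2, 32.96 and 32.8 CPM in irradiated samples, with control replicate 1 the highest. It was not called, and the 95% interval of its change was -0.15 to 0.10. MIR23AHG, which encodes miR-23a, miR-27a and miR-24-2, had the highest CPM of the microRNA hosts, and its interval was -0.15 to 0.20. MIR222HG, the host of miR-221 and miR-222, had an interval from -0.09 to 0.26.

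The remaining called falls were MIR4733HG at -0.72, MIR130AHG at -0.52 and MIR600HG at -0.32 on the log2 scale. MIR4733HG and MIR130AHG were expressed below 1 CPM in all samples, and they kept their calls in 12 and 8 of 14 alternatives. MIR4733HG held 248 counts over the 10 samples, and 29.1% of its exons lie under opposite-strand exons. MIR29B2CHG (-0.44), MIR762HG (-0.33), MIR4453HG (-0.11), MIR133A1HG (-0.06), MIR3677HG (-0.05) and MIR137HG (0.06) were not called. MIR29B2CHG, the host of miR-29 microRNAs that repress collagen genes, was called lower by DESeq2, with a minimum of 1 count and without replicate 2.

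The called changes of snoRNA hosts were all under 2-fold. Per kilobase of exon they were higher than microRNA hosts, with a median of 1.91 against 0.98 CPM per kb. SNHG32, SNHG29 and SNHG19 led them at 20.8, 17.1 and 14.6 CPM per kb. Exons of other genes on the same strand cover 29.1%, 2.41% and 13.5% of their exons, where reads shared by both genes are lost.

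SNHG12 (chr1:28578538-28583132, minus strand), which holds SNORD99, SNORA61, SNORA44 and SNORA16A, had the largest rise. It was at 10.5, 14.2, 12.6, 11.6 and 10.4 CPM in controls and 14.7, 16.2, 16.1, 16.6 and 13.6 CPM in irradiated samples. Every pair rose, but control replicate 2 lay above irradiated replicate 5, so the ranges overlapped. The change was 0.39 ± 0.07 (SE) (adjusted p = 0.00236, edgeR) and was called in all 14 alternatives.

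SNHG4 and SNHG8 rose by less, and their calls depended on the settings. SNHG4 (chr5:139274102-139284899, plus strand), with snoRNAs of the SNORA74 family, was at 4.48, 5.43, 4.58, 5.95 and 5.23 CPM in control and 7.06, 5.51, 6.45, 6.55 and 6.61 CPM in irradiated samples. All pairs rose, and the change of 0.33 ± 0.11 (SE) (adjusted p = 0.0363, edgeR) was called in 6 of 14 alternatives. It was 0.17 without replicates 1 and 3 (adjusted p = 0.187, edgeR). SNHG8 (chr4:118278703-118285316, plus strand), the host of SNORA24, was at 17.9, 17.4, 28.1, 18.5 and 17.4 CPM in controls and 21.2, 20.3, 28.3, 22.3 and 20.5 CPM after irradiation. Replicate 3 was the highest of both groups, and 37.6% of the exons of SNHG8 lie under opposite-strand exons. Its change was 0.20 ± 0.06 (SE) (adjusted p = 0.0224, edgeR), called in 8 of 14 alternatives.

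SNHG18 (chr5:9546170-9550725, plus strand), the host of SNORD123, had the largest fall of its kind. Control samples held 7.60, 7.20, 12.6, 7.67 and 7.35 CPM and irradiated samples 4.51, 6.18, 4.47, 4.35 and 4.92 CPM. The groups did not overlap, with control replicate 3 the highest and irradiated replicate 2 the highest of its group. It changed by -0.77 ± 0.17 (SE) (adjusted p = 0.00676, edgeR), and by -0.54 without replicates 1 and 3. SNHG29 (chr17:16438767-16480249, plus strand), which holds SNORD49A, SNORD49B and SNORD65, had the highest CPM of all 59 hosts. It was at 162, 158, 198, 173 and 167 CPM in controls and 126, 143, 144, 124 and 131.7 CPM in irradiated samples, without overlap. The change was -0.36 ± 0.06 (SE) (adjusted p = 0.00161, edgeR).

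SNHG19 (chr16:2154792-2155405, minus strand), a short gene around SNORD60, was at 8.60, 11.2, 10.1, 11.6 and 10.3 CPM in controls and 7.61, 8.51, 8.60, 6.95 and 6.29 CPM in irradiated samples. Control replicate 1 was the lowest control and lay just above irradiated replicate 3, so the groups met without overlapping. It changed by -0.45 ± 0.10 (SE) (adjusted p = 0.00907, edgeR). SNHG10 (chr14:95521943-95534889, minus strand), the host of the Cajal body RNA SCARNA13, was at 5.16, 5.55, 5.14, 5.34 and 5.01 CPM in control and 3.64, 4.69, 3.79, 3.60 and 3.89 CPM in irradiated samples. The groups did not overlap and the change was -0.42 ± 0.08 (SE) (adjusted p = 0.00411, edgeR). SNHG18, SNHG19, SNHG10 and SNHG29 were called lower in all 14 alternatives.

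SNHG30 (chr17:35568050-35574900, plus strand), around SNORD7, was at 3.77, 4.88, 5.04, 4.37 and 4.61 CPM in controls and 3.36, 4.24, 3.73, 3.26 and 3.45 CPM after irradiation. All 5 pairs fell, the ranges overlapped, and the change was -0.33 ± 0.08 (SE) (adjusted p = 0.0145, edgeR). SNHG32 (chr6:31834608-31839766, plus strand), with SNORD48 and SNORD52, was at 43.0, 39.1, 52.9, 34.0 and 35.8 CPM in control and 29.6, 39.4, 39.7, 29.2 and 32.3 CPM in irradiated samples. The ranges overlapped and 4 of 5 pairs fell. Its change was -0.26 ± 0.08 (SE) (adjusted p = 0.0287, edgeR), and -0.12 without replicates 1 and 3 (adjusted p = 0.097, edgeR).

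SNHG1 (chr11:62851978-62855953, minus strand), the host of SNORD22, SNORD25, SNORD26, SNORD27, SNORD28 and SNORD30, was not called. It was at 17.7, 25.9, 19.3, 24.4 and 22.2 CPM in controls and 19.3, 21.2, 21.7, 19.4 and 18.5 CPM in irradiated samples. Control replicates 1 and 3 were the lowest controls, 2 of 5 pairs rose, and the interval of the change was -0.33 to 0.09. Without these replicates SNHG1 was called lower at -0.30 (adjusted p = 0.00235, edgeR), and SNHG3 at -0.26 (adjusted p = 0.0055, edgeR). The other hosts not called had fitted changes from -0.26 for SNHG31 to 0.17 for SNHG26. Among them were SNHG14, the transcript of the imprinted SNORD116 region on chromosome 15, with an interval from -0.04 to 0.15, and SNHG5, with one from -0.42 to 0.06.

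**Figure D5:**
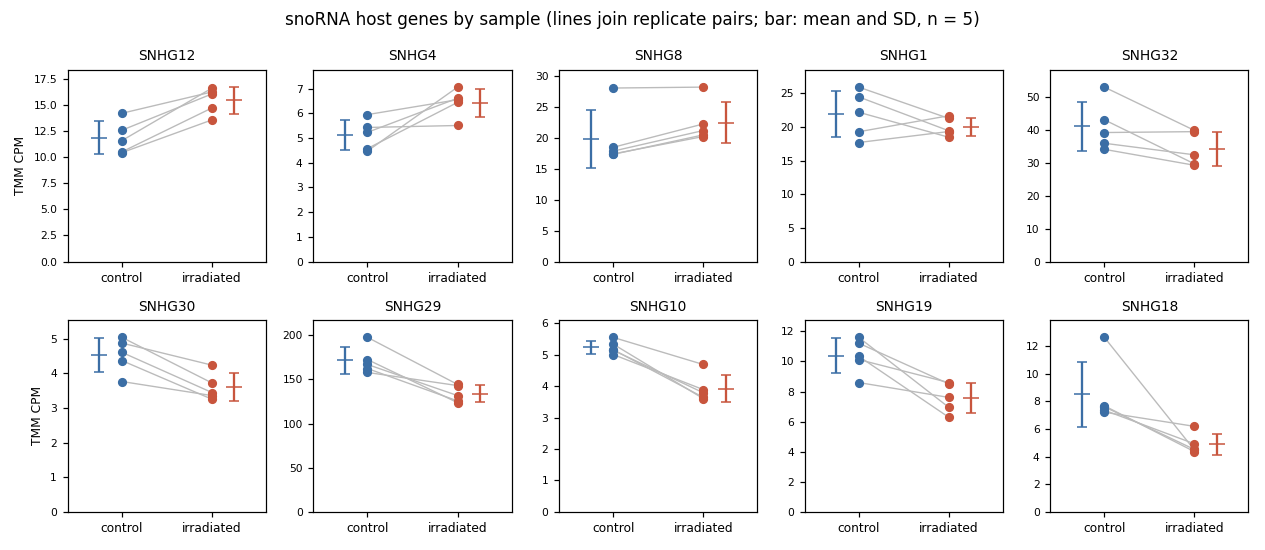
TMM-normalised CPM (y axis) of 10 snoRNA hosts in each control (blue) and irradiated (red) sample, with lines joining replicate pairs and bars for the mean and SD (n = 5 per group). SNHG12, SNHG4 and SNHG8 rise in all 5 pairs, SNHG29, SNHG10, SNHG19 and SNHG18 fall in all 5 pairs without overlap, and SNHG1 averages 21.9 CPM in control and 20.01 CPM in irradiated samples.

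RefSeq promoters (GRCh38.p14, 250 bases before to 50 after the annotated start) were matched for 31 microRNA hosts and 22 snoRNA hosts. A C at the annotated start followed by at least 4 pyrimidines, the form of a terminal oligopyrimidine start, was found in 6 of 22 snoRNA hosts (27.3%) and 1 of 31 microRNA hosts (3.23%), against 4.04% of all 27305 promoters. With the start allowed to lie within 10 bases, the shares were 68.2%, 48.4% and 33.3%. The 27305 promoters include those of genes not tested here. The median GC content was 62.0% for snoRNA hosts, 64.3% for microRNA hosts and 58.3% for all promoters, and its part in these shares was not tested. The 6 snoRNA hosts are printed in a window of 30 bases centred on the start, with the stretch in capitals.
SNHG12: tcgcggcttcagcgcCCTTTCTCCCCgccg
SNHG4: ctcggctcccggctgCCCTTTCCCCTCCgg
SNHG5: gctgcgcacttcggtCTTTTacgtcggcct
SNHG18: ccgccgccgcgccgcCTCCTCCTCCTCCTC
SNHG19: ctcgcccgcccctgtCTTTTCggggtcgag
SNHG32: ctcgccattttagttCTTTTTgcgaagtgg
The windows lie at chr1:28581859-28581888 (minus strand), chr5:139274086-139274115 (plus strand), chr6:85678719-85678748 (minus strand), chr5:9546185-9546214 (plus strand), chr16:2155344-2155373 (minus strand) and chr6:31834901-31834930 (plus strand). Of these, SNHG12 and SNHG4 were higher, SNHG18, SNHG19 and SNHG32 lower and SNHG5 not called. The windows of SNHG12, SNHG5, SNHG18, SNHG19 and SNHG32 lie inside the GENCODE 44 spans of these genes. Whether other annotated starts give such a stretch was not tested. In 50 of the 53 host promoters the start was that of the RefSeq gene.

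The RefSeq promoter of MIR3142HG, the host with the largest rise, is printed because it holds a match to the NF-kB site, in capitals (chr5:160468001-160468300, plus strand). Its window lies inside the GENCODE 44 span of the gene (chr5:160438594-160487426), not before the start of that span.
MIR3142HG: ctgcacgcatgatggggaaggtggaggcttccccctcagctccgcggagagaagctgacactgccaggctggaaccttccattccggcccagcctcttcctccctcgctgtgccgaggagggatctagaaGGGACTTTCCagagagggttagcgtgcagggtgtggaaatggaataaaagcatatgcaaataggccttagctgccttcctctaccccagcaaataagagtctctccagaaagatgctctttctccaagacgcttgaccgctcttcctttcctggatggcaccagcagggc
The other microRNA host with such a match was MIR100HG, which was not called, giving 2 of 31 (6.45%). SNHG4 and SNHG29 gave 2 of 22 snoRNA hosts (9.09%), and 5.72% of all promoters hold a match on either strand. A half-site of p53 was found in the promoters of MIR17HG and MIR99AHG, both lower, and in 6.54% of all promoters. A full p53 site was found in 0 of 53 hosts and in 8 of all 27305 promoters (0.0293%). At so low a share, 0 matches among 53 promoters do not set the hosts apart from other genes. The motif CACGTG was in 0 of 31 microRNA hosts and 2 of 22 snoRNA hosts, against 7.43% of all promoters. These are matches of letters within the 300 bases, and binding was not measured.

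The other genes of these pathways were read from the same fit, in which 23.9% of all genes were higher and 22.7% lower. Among protein-coding genes with microRNAs in their introns, 12 of 21 were lower (57.1%) and 2 higher (9.52%). SMC4, a condensin subunit that holds miR-15b and miR-16-2, changed by -1.24, MEST by -1.10 and SKA2, a mitotic spindle protein, by -0.73 on the log2 scale. Of 6 tested hosts whose names fall outside the symbol pattern, 2 were lower (33.3%) and 0 higher. DLEU2, the host of miR-15a and miR-16-1, fell by 0.86 and EPB41L4A-AS1 by 0.35, while GAS5, the host of many C/D box snoRNAs, changed by -0.14 and was not called. Of 17 genes of other names with snoRNAs in their introns, most of them protein-coding, 1 was higher (5.88%), 2 were lower (11.8%) and 14 were not called. The 3 called were EIF4A2 at 0.27, RACK1 at -0.26 and PRRC2A at -0.26. SMC4 and MEST were the only genes of these 3 lists beyond 2-fold.

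Of 19 tested genes for proteins that make or use microRNAs, 4 were higher (21.1%) and 5 lower (26.3%), close to the shares of all genes. The largest of these were TNRC6C at -0.39, TNRC6A at -0.33, both GW182 silencing proteins, and DICER1 at -0.32. Of 20 genes for proteins that form or assemble snoRNA particles or act in making ribosomes, 2 were higher (10%) and 6 lower (30%). The largest changes were in the ribosome assembly factor NOP53 at -0.45, the methyltransferase FBL at -0.42 and the snoRNA particle assembly factor ZNHIT6 at 0.36. Among 18 nonsense-mediated decay factors 2 were higher (11.1%) and 5 lower (27.8%), led by EIF4A3 at -0.39, SMG6 at 0.30 and RBM8A at 0.26. Of 19 genes whose messengers have terminal oligopyrimidine starts, most of them translation genes, 12 were lower (63.2%) and 0 higher. Their median was -0.18 against -0.01 over all genes. The largest changes were in the translation factors EIF3F at -0.42 and EIF3L at -0.32 and in HNRNPA1, an RNA-binding protein, at -0.31.

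Of 17 tested genes published as miR-34 targets, 7 were higher (41.2%) and 5 lower (29.4%), against 23.9% and 22.7% of all genes, with a median of -0.02. SNAI1, a repressor of E-cadherin, changed by -3.23, JAG1, a Notch ligand, by 1.69 and CCND1, a G1 cyclin, by 1.63. Members of this list moved in both directions beside the rise of MIR34AHG, and miR-34a itself was not measured.

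The other 41 microRNA hosts were below the limit of 200 counts, 9 of them at 0 counts and 32 at 1 to 180. The 2 untested snoRNA hosts, SNHG27 and SNHG28, held 12 and 10 counts. The members nearest the limit were MIR5689HG with 180 counts, which was left out, and MIR133A1HG with 234, which was tested. With a minimum of 1 count, 3 of these hosts were called. MIR5689HG held 5, 12, 7, 6 and 10 counts in control replicates 1 to 5 and 23, 17, 35, 31 and 34 in irradiated replicates 1 to 5, a fitted rise of 2.08 (adjusted p = 1.71e-06, edgeR). MIR4280HG held 1 to 6 counts in controls and 9 to 21 in irradiated samples, a rise of 2.86 (adjusted p = 2.6e-05, edgeR). MIR4500HG held 3 to 12 and 0 to 2 counts, a change of -2.24 (adjusted p = 0.013, edgeR). Hosts known from other cell types were among the lowest, with MIR142HG and MIR223HG, of blood cells, at 8 and 1 counts and the liver host MIR122HG at 0. MIR200CHG, whose microRNAs are known from epithelia, held 6 counts. MIR34BHG, the host of the other miR-34 genes, held 4 counts over the 10 samples.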

How the data were processed

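RNA-seq of 5 control and 5 irradiated RPTEC/TERT1 samples was analysed from the deposited counts of reads per gene, which were whole numbers without normalisation. Per the study's methods, the authors removed adapters (Trim-Galore), mapped reads to GRCh38 with STAR, whose own gene counting made the table, removed genes with fewer than 200 counts and modelled replicate number and group in DESeq2. The GENCODE release is not given in the sources used here. The labels name a TruSeq library kit and the methods a NEBNext kit for the poly-A libraries, and which was used could not be settled. Total counts on genes were between 66269311 and 131555873 per sample, and at these depths the spread between replicates limits precision except for hosts near 200 counts.

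Differential expression was tested with edgeR 4.0.16 in R 4.3.3 (TMM normalisation, glmQLFit and glmQLFTest) on 19006 of 61587 genes, those whose counts summed to 200 or more, with replicate number as a block, as in the study. P-values were adjusted over all 19006 genes by the Benjamini-Hochberg method with a threshold of 0.05, and the standard error of a log2 fold change was taken from its F statistic. Intervals of 95% use the t distribution with the degrees of freedom of the quasi-likelihood test, 7.68, and so extend 2.32 standard errors to each side. Replicate numbers come from the sample labels, and the deviations of same-numbered samples from their group means correlated at 0.22 to 0.51 in each of the 5 pairs, against -0.35 to 0.32 for different numbers, so the numbers were taken to pair the samples. Chi-square per gene between replicates ran from 8.50 to 213, so none agreed within sampling noise. Symbols were matched for 61369 rows. Coordinates and exon lengths are from GENCODE 44, whose versions match those of 62 of the 102 hosts. Its exon unions include retained introns, so levels per kilobase are low estimates. Protein-coding genes lying wholly under exons of the opposite strand (17) were all at 0 counts, against 10.7% of 12742 without such overlap. The counts are therefore treated as unstranded, with reads shared by overlapping genes lost.

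Values by sample are given for up to 12 called hosts of each kind with the largest changes and a mean of at least 1 CPM, the 3 of each kind with the highest level per kilobase, and 8 hosts picked by name (MIR34AHG, MIR22HG, MIR17HG, MIR31HG, MIR155HG, MIR210HG, MIR100HG and SNHG1), 26 in all. MIR924HG, MIR205HG and MIR5689HG were added after their values were seen. Up to 3 genes with the largest changes are named from each list of pathway genes. The members and lists were chosen with earlier results of these data known, and no list was tested as a set. The edgeR steps were tested on simulated data, where the share of calls that were false was above the nominal threshold. Alternatives were library size only, RLE and upper-quartile factors, a minimum of 1 count, filterByExpr, no replicate block, each replicate left out, DESeq2 1.42.0 and limma-voom (limma 3.58.1), and, added after the data had been seen, leaving out replicates 1 and 3 together. Exon overlaps were taken with bedtools 2.31.1, and figures drawn with matplotlib 3.10.9.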

Additional observations from a re-analysis of the deposited data

Results flagged for a closer look

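Values by sample of the 26 hosts given in full were searched for a single sample far from the other 4 of its group, by Dixon's test at the 95% level (a gap over 0.71 of the range). Of 52 groups, 9 held such a sample, where chance gives about 2.6, and all 9 samples were high.

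Replicate 3 gave 4 of the 9. SNHG8 was at 28.1 CPM in control replicate 3 (other controls 17.4 to 18.5) and at 28.3 CPM in irradiated replicate 3 (others 20.3 to 22.3), so the sample pair was high in both groups. SNHG18 was at 12.6 CPM in control replicate 3 (others 7.20 to 7.67), and MIRLET7A1HG at 5.44 CPM in the same sample (others 3.87 to 4.18). Replicate 2 gave MIR31HG at 10.9 CPM in the irradiated sample (others 8.67 to 9.26), SNHG10 at 4.69 CPM in the irradiated sample (others 3.60 to 3.89) and MIRLET7IHG at 9.26 CPM in the control sample (others 8.38 to 8.62). Replicate 1 gave MIR22HG at 43.7 CPM in the control sample (others 32.1 to 35.2) and MIR210HG at 12.5 CPM in the irradiated sample (others 7.63 to 8.78). What sets these samples apart was not tested.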

How the results depend on the processing

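Of 29 called hosts, 15 kept their call in all 14 alternatives, among them MIR3142HG, MIR155HG, MIR34AHG, MIR548A1HG, MIR924HG, MIR17HG, MIR503HG, MIR99AHG, SNHG12, SNHG18 and SNHG29, and of 30 hosts not called 25 stayed so. Leaving out 1 replicate gave 8 to 14 lower microRNA hosts (8 without replicate 4) and 1 to 3 higher snoRNA hosts (1 without replicate 1, 4 or 5), with fewer samples in each fit. With library size only, 1 snoRNA host was higher and 7 were lower, the snoRNA host median was -0.0891 and the median of all genes -0.0859, and the minimum of 1 count also left 1 higher. MIR22HG, not called in any of these, reversed from -0.0252 to 0.022 without replicate 1 and to 0.0106 without replicates 1 and 3, the pair left out after the data had been seen, and ran from -0.0427 to 0.022 with 1 replicate left out. Without the replicate block, which does not use the pairing, 4 microRNA hosts were higher and 12 lower and 2 snoRNA hosts were higher and 5 lower. Calls were then lost for MIR210HG, SNHG8, SNHG32, MIR1915HG, MIR3936HG and MIR130AHG (adjusted p = 0.168, 0.356, 0.134, 0.206, 0.0509 and 0.107, edgeR). The cause of these changes was not tested. Counts limit the 41 microRNA hosts and 2 snoRNA hosts under 200 counts, for which a difference was mostly not detectable.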

Other observations

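The count table also lists the small RNAs themselves. Inside the tested microRNA hosts lie 60 annotated small RNA genes, 34 of them at 0 counts in all samples, and inside the tested snoRNA hosts 139, 124 of them at 0. Of the 60 and 139 genes, 35 and 83 overlap annotated exons of their host, where reads shared by both genes are lost in the counting. A count of 0 there does not show that RNA was absent. The counts of all these small RNA genes together came to 0.654% and 0.481% of those of the hosts. Reads of poly-A libraries on such genes can come from host or precursor transcripts, so they are no measure of the mature small RNAs. Of these rows, 5 held at least 200 counts. MIR210 (hairpin inside MIR210HG) changed by -0.64 on the log2 scale (adjusted p = 0.0392, edgeR) and was lower in 4 of 5 pairs, in the direction of its host. SNORD99, inside SNHG12, changed by 0.78 and was not called (adjusted p = 0.118, edgeR), and SNORA71B, SNORD104 and SNORA73B were not called either.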
